A study of Homo sapiens with 12 samples.

Results

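The genes described here are 9 that control entry into mitosis: CDK1, its cyclin partners CCNA2, CCNB1 and CCNB2, its regulators CDC25B, CDC25C, PKMYT1 and PLK1, and the transcription factor FOXM1. They were taken by name, with every probe set that the array annotation maps to just 1 of them. This gave 18 probe sets for 9 genes, of 54675 probe sets and 19775 named genes on the array. Averaged over the 12 arrays, 15 of the 18 reached a log2 value of 4, the filter used throughout, and all 9 genes had at least 1 such probe set. RNA came from HK-2, a line of immortalised epithelial cells from the proximal tubule of the human kidney. The groups were cells given Aa at a low dose for 24 h, controls at 24 h, cells given Aa for 48 h, and controls at 48 h, with 3 arrays in each of the 4 groups. All cells were treated near confluence in a medium with epidermal growth factor, insulin, transferrin and hydrocortisone, and control cells received the vehicle. The sources used here name neither the compound behind Aa, nor its dose in numbers, nor the vehicle. The arrays are from a larger project on signatures of kidney toxicity in cultured cells. The comparisons here ask what Aa did to these genes at each time and whether that differed between the times.

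Entry into mitosis is driven by the kinase CDK1 once it has bound a B-type cyclin. The inhibitory kinases WEE1 and PKMYT1 hold the complex inactive, CDC25 phosphatases remove their marks, and PLK1 promotes the switch. FOXM1, with B-MYB and the MuvB core, drives transcription of most of these genes late in the cell cycle. Promoter elements called CHR and CCAAT boxes take part in the control of such genes. The DREAM complex represses these genes through the CHR, and p21, the product of CDKN1A, favours that repression. In the kidney, tubule cells divide rarely, and G2/M arrest of proximal tubule cells is a known response to injury.

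The promoter windows of CDK1, its B-type cyclins and PLK1 are shown so that the core kinase complex can be read beside the elements that control its genes. Each is the RefSeq window of GRCh38.p14 from 250 bases before to 50 bases after a transcription start, given 5′ to 3′ on the gene's strand. Capitals mark letters of the CHR (TTTGAA or TTCGAA) or of the CCAAT box (CCAAT), read on either strand. The windows are chr15:59104896-59105195 on the plus strand for CCNB2, chr5:69166900-69167199 (plus) for CCNB1, chr10:60778228-60778527 (plus) for the second of the CDK1 windows, and chr16:23678639-23678938 (plus) for PLK1.
CCNB2: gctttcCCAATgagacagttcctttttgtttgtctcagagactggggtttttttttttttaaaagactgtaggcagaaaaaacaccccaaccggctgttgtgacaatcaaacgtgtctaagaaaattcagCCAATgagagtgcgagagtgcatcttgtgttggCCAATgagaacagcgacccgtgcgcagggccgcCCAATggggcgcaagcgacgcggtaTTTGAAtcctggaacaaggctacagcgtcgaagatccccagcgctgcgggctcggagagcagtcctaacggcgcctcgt
CCNB1: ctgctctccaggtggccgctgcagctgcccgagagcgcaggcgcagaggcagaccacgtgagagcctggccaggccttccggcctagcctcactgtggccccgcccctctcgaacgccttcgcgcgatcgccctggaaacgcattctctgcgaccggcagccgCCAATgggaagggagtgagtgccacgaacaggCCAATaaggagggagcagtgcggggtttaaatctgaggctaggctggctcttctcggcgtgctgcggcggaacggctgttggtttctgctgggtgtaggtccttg
CDK1: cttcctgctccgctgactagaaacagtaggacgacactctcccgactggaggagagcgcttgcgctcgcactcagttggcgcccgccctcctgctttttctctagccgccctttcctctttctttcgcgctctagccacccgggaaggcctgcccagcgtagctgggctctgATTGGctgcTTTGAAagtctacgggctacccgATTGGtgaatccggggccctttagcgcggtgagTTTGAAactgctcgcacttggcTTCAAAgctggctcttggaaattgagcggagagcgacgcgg
PLK1: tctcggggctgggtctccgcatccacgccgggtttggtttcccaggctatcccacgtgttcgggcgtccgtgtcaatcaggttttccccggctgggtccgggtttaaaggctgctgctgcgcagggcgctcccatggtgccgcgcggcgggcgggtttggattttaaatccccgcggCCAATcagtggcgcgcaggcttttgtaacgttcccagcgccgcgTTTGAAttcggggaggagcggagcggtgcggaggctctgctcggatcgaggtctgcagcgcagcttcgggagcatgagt
CCNB2 carried 4 CCAAT boxes and 1 CHR whose first letter lay 29 bases before the start. PLK1 had its CHR at the same distance of 29 bases, with 1 CCAAT box. The CDK1 window held 3 CHR matches and 2 CCAAT boxes, and CCNB1 had 2 CCAAT boxes and no match to the CHR letters.

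Over all members, 7 had an entry in the promoter table, with 14 windows. At least 1 window held a CCAAT box in 7 of 7 of these genes, against 39.7% of all 27305 genes with a window. The CHR letters searched, TTTGAA or TTCGAA, were found in 5 of 7 (all genes 19.5%). CCNA2 and CCNB1 had no match to these letters, and other forms of the CHR were not searched. An E2F word was found in 4 of 7 (all genes 13.1%), the words searched being TTGGCGC with its variant forms TTCGCGC and also TTCCCGC, and the forkhead word TAAACA in 1 of 7 (all genes 14.7%). All words were searched on both strands. The CCAAT box read backwards, ATTGG, shares letters with TTGGCGC, so matches of the 2 can overlap. Genes with several windows have more chances of a match, and members had up to 4 windows each. These matches are descriptions of the letters in the windows.

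The arrays were close to each other, with a median over all probe sets between 2.93 and 3.01 on the log2 scale. The actin control probe sets, which report RNA breakdown as the 3′ minus the 5′ signal, averaged 0.82 with Aa and 0.79 in controls at 24 h, and 0.90 with Aa and 0.78 in controls at 48 h. Of 12 proximal tubule and epithelial markers measured, 8 had a mean log2 value of at least 4, among them KRT8, KRT18, KRT19 and PAX8. The brush border and endocytosis genes GGT1, ANPEP, LRP2 and CUBN lay below that level in every group. No leukocyte marker (0 of 4) reached it, while 1 of 6 endothelial markers (CLDN5) and 2 of 6 fibroblast markers (DCN and LUM) did. Of the 8 tubule markers tested, 1 fell with Aa at 24 h, where 12.8% of all genes fell, and 5 fell at 48 h, where 20.1% did. With the replicate number as a block, 3 fell at 24 h, where 41.3% of all genes changed in either direction. At 48 h 6 fell and 2 rose with the block, where 54.8% of all genes changed. The markers' median log2 changes were -0.29 at 24 h and -0.54 at 48 h, and their part in the results below was not tested.

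At 24 h, Aa lowered both cyclin B genes while CDK1 itself was raised. CCNB2 fell 2.00-fold and CCNB1 1.82-fold, the phosphatase genes CDC25B and CDC25C fell 1.58-fold and 1.55-fold, and CDK1 rose 1.35-fold. In all, 5 of 9 members changed in limma's test with an adjusted p under 0.05 over 10791 genes, where 23.1% of all genes tested changed. In the raised direction this was 1 member (10.3% of all genes) and in the lowered direction 4 (12.8%). The members' median log2 change was -0.59 and that of all genes -0.02. In bulk RNA, fewer cells in a phase of the cycle and less RNA per cell cannot be told apart. With the replicate number as a block, all 9 members passed, 3 raised and 6 lowered, where 41.3% of all genes did. The arrays of the 2 groups did not overlap for 7 of 9 members, and for 40.5% of all genes.

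CDK1, the catalytic subunit, had log2 values of 13.15, 12.93 and 13.03 in Aa cells at 24 h and 12.48, 12.56 and 12.78 in controls. Every Aa array lay above every control array. The log2 change was 0.43 (SE 0.11, adjusted p = 0.0183), and it was not significant without Aa replicate 1 (adjusted p = 0.0723), control replicate 1 (0.0708) or control replicate 2 (0.0577). Over 22 alternative settings the adjusted p ran from 0.00652 to 0.432, the highest being that of the mean of all CDK1 probe sets, whose log2 change was 0.18.

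CCNB1, the main activating cyclin of mitosis, measured 11.85, 12.05 and 11.62 on the log2 scale in Aa cells at 24 h, against 12.56, 12.67 and 12.88 in controls. CCNB2, its close relative, measured 10.76, 11.20 and 10.59 in Aa cells, against 11.77, 11.95 and 11.81 in controls. In both genes all Aa arrays lay below all controls. CCNB1 fell by 0.86 (SE 0.13, adjusted p = 0.00141) and CCNB2 by 1.00 (SE 0.14, adjusted p = 0.000875) on the log2 scale. CCNB2 passed in 22 of 22 alternatives (adjusted p 0.000139 to 0.0105) and CCNB1 in 21 of 22 (0.000566 to 0.122). The exception for CCNB1 was the probe set not marked as shared, described with the other probe sets. CCNA2, the cyclin of S phase and G2, measured 11.02, 11.16 and 11.12 in Aa cells and 11.32, 11.29 and 11.59 in controls. Its groups did not overlap, but the log2 change of -0.30 (SE 0.15) did not pass (adjusted p = 0.184). It did with the replicate block (adjusted p = 0.0448).

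Of the phosphatases that activate CDK1, CDC25B had log2 values of 11.17, 11.39 and 10.81 in Aa cells at 24 h and 11.95, 11.82 and 11.59 in controls. CDC25C had 8.14, 8.37 and 7.71 in Aa cells and 8.56, 8.81 and 8.75 in controls. Neither gene's groups overlapped, and in both Aa replicate 3 was the lowest array. CDC25B fell by 0.66 (SE 0.17, adjusted p = 0.0201, range over 21 alternatives 0.00207 to 0.0759) and CDC25C by 0.63 (SE 0.20, adjusted p = 0.0414, range 0.00841 to 0.149). CDC25B did not pass without Aa replicate 3 (adjusted p = 0.0759), control replicate 1 (0.0743) or control replicate 2 (0.0557). CDC25C passed in 11 of 21 alternatives. It did not pass without Aa replicate 1 (0.0848) or 3 (0.149), without control replicate 1 (0.0627), 2 (0.115) or 3 (0.108), or without Aa replicate 1 (0.0545) or control replicate 3 (0.0540) of 48 h.

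PKMYT1, the membrane-bound kinase that restrains CDK1, measured 8.29, 7.79 and 8.33 in Aa cells at 24 h and 7.67, 7.30 and 7.90 in controls. PLK1, the kinase that promotes entry, measured 9.38, 9.19 and 9.29 in Aa cells and 9.75, 9.61 and 10.28 in controls. FOXM1, the transcription factor, measured 10.27, 9.66 and 10.03 in Aa cells and 9.71, 9.32 and 9.87 in controls. PLK1 was lower on every Aa array than on every control array, whereas the groups overlapped for PKMYT1 and FOXM1. The log2 changes were 0.51 (SE 0.28, adjusted p = 0.219) for PKMYT1, -0.59 (SE 0.29, adjusted p = 0.171) for PLK1 and 0.35 (SE 0.24, adjusted p = 0.326) for FOXM1. All 3 passed with the replicate block, with adjusted p = 0.00237 for PKMYT1, 0.0237 for PLK1 and 0.0221 for FOXM1.

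**Figure D1:**
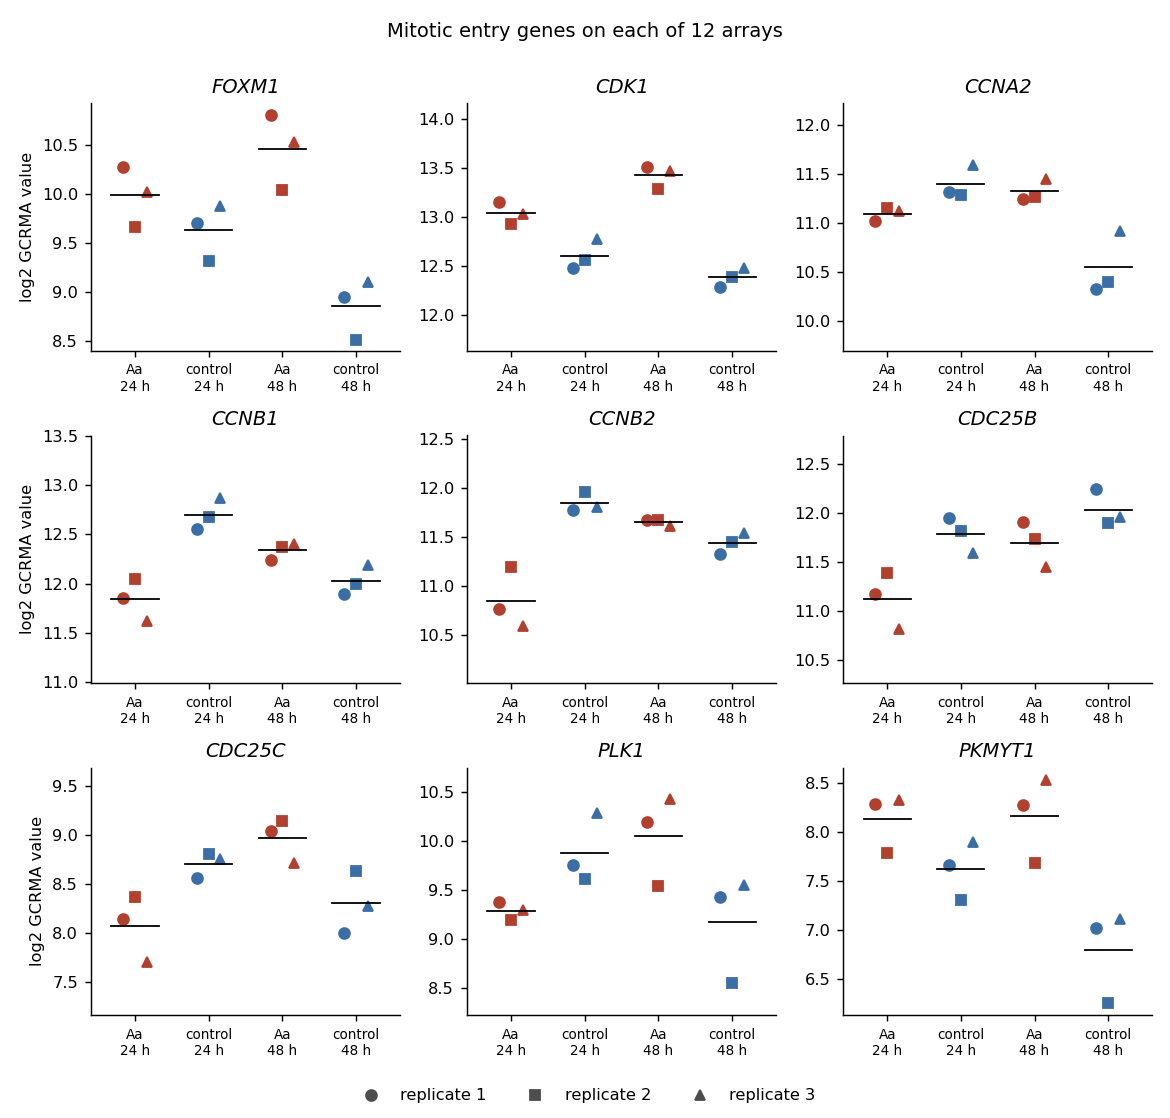
Log2 value of each mitotic entry gene (y axis, 1 panel per gene, each panel spanning the same number of log2 units) on each of the 12 arrays, by group on the x axis; symbols mark the replicate number and bars the mean of 3 arrays. CCNB1 and CCNB2 are lowest in Aa cells at 24 h, and FOXM1, CDK1 and PKMYT1 are highest in Aa cells at 48 h and lowest in controls at 48 h.

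At 48 h most of the set was higher with Aa, FOXM1 and PKMYT1 by the most. FOXM1 rose 3.04-fold, PKMYT1 2.57-fold, CDK1 2.05-fold, PLK1 1.84-fold, CCNA2 1.71-fold and CDC25C 1.58-fold. No member fell, and CCNB1, CCNB2 and CDC25B did not pass. These 6 of 9 members compare with 37.8% of all genes changed at 48 h (17.8% raised and 20.1% lowered). The members' median log2 change was 0.77 and that of all genes 0.00. The groups did not overlap for 7 of 9 members, against 48.4% of all genes. With the replicate block the 6 rises stood and CDC25B fell (adjusted p = 0.0319), where 54.8% of all genes passed.

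CDK1 had log2 values of 13.51, 13.28 and 13.47 in Aa cells at 48 h and 12.28, 12.39 and 12.48 in controls. This was a clear gap between the groups, and the log2 change of 1.04 (SE 0.11, adjusted p = 0.000108) passed in 22 of 22 alternatives. FOXM1 had 10.81, 10.04 and 10.53 in Aa cells and 8.96, 8.52 and 9.11 in controls. PKMYT1 had 8.27, 7.69 and 8.53 in Aa cells and 7.03, 6.26 and 7.12 in controls. In both genes replicate 2 was the lowest of its group, in Aa cells and in controls, and still each Aa array lay above all controls. The log2 change was 1.60 (SE 0.24, adjusted p = 0.000658) for FOXM1 and 1.36 (SE 0.28, adjusted p = 0.00359) for PKMYT1, and both passed in 21 of 21 alternatives. FOXM1 and PKMYT1 were each measured by 1 probe set of a kind (_x_) that may bind other transcripts too.

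Among the cyclins at 48 h, CCNA2 measured 11.25, 11.27 and 11.45 in Aa cells and 10.33, 10.40 and 10.92 in controls. CCNB1 measured 12.24, 12.37 and 12.40 in Aa cells, against a range of 11.90 to 12.19 in controls. CCNB2 measured 11.67, 11.67 and 11.61 in Aa cells, against 11.33, 11.45 and 11.54 in controls. All 3 genes had their Aa arrays above their controls. CCNA2 rose by 0.77 (SE 0.15, adjusted p = 0.0029) in all of 22 alternatives. The log2 changes of 0.31 for CCNB1 (SE 0.13, adjusted p = 0.0883) and 0.21 for CCNB2 (SE 0.14, adjusted p = 0.266) did not pass.

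PLK1 had log2 values of 10.18, 9.54 and 10.42 in Aa cells at 48 h and 9.43, 8.54 and 9.55 in controls. Its groups overlapped, by the lowest Aa array and the highest control array, although within each replicate number the Aa array was the higher. PLK1 rose by 0.88 (SE 0.29, adjusted p = 0.0356, range over 22 alternatives 0.00259 to 0.130), and did not pass without Aa replicate 1 (adjusted p = 0.103), Aa replicate 3 (0.130) or control replicate 2 (0.128). CDC25C had 9.04, 9.14 and 8.72 in Aa cells and 8.00, 8.63 and 8.28 in controls. Each Aa array lay above all controls, by a narrow margin. CDC25C rose by 0.66 (SE 0.20, adjusted p = 0.0238, range over 21 alternatives 0.00452 to 0.184), and did not pass without Aa replicate 1 (0.0714) or 2 (0.0681) or control replicate 1 (0.0885) or 3 (0.0558). CDC25B had 11.91, 11.73 and 11.45 in Aa cells and 12.24, 11.90 and 11.95 in controls. It was the 1 member whose mean lay lower with Aa at both times, and at 48 h its groups overlapped and the log2 change of -0.34 (SE 0.17, adjusted p = 0.156) did not pass.

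The effect of Aa on every member was more positive at 48 h than at 24 h. The difference of the effects, 48 h minus 24 h, ran from 0.33 for CDC25B to 1.47 for PLK1 on the log2 scale, with a median of 1.17 against 0.01 for all genes. In the test of this difference CCNB1 (1.17, SE 0.19, adjusted p = 0.0253) and CCNB2 (1.21, SE 0.20, adjusted p = 0.0262) passed. These are 2 of 9 members, where 0.825% of all genes passed, 0.741% in this direction and 0.0834% in the other. The other members had a difference of 1.08 for CCNA2 (adjusted p = 0.0520), 1.30 for CDC25C (0.0726), 0.61 for CDK1 (0.110), 1.25 for FOXM1 (0.124), 1.47 for PLK1 (0.140), 0.85 for PKMYT1 (0.359) and 0.33 for CDC25B (0.586). The replicate block brought this to 8 of 9, with adjusted p from 0.00579 for FOXM1 to 0.0252 for CDK1, and CDC25B did not (0.214), where 11% of all genes did. CDC25C fell at 24 h and rose at 48 h, each in its own test, and with the block so did CCNA2 and PLK1. These calls rest on 1 probe set per gene. In limma over all probe sets, CDC25C 217010_s_at passed at neither time (adjusted p = 0.0626 and 0.624). CCNA2 213226_at had a log2 change of 0.06 at 24 h (adjusted p = 0.760). The share of all genes with both calls was not taken.

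Both cyclin B calls lay near the threshold and were lost on leaving out any 1 of most arrays, while the difference itself stayed similar in size. Each passed in 12 of 21 alternatives, with adjusted p from 0.0077 to 0.0808 for CCNB1 and from 0.00704 to 0.0809 for CCNB2. Neither passed without Aa replicate 1 or 3 of either time, control replicate 2 or 3 of 24 h, or control replicate 1 or 2 of 48 h. CCNB1 in addition did not pass without the probe sets marked as shared (1.07, adjusted p = 0.0510), and CCNB2 did not without control replicate 1 of 24 h. Without any one of these arrays the adjusted p lay between 0.0536 and 0.0808 for CCNB1 and between 0.0560 and 0.0809 for CCNB2, and the difference itself between 1.06 and 1.22 for CCNB1 and between 1.08 and 1.24 for CCNB2.

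**Figure D2:**
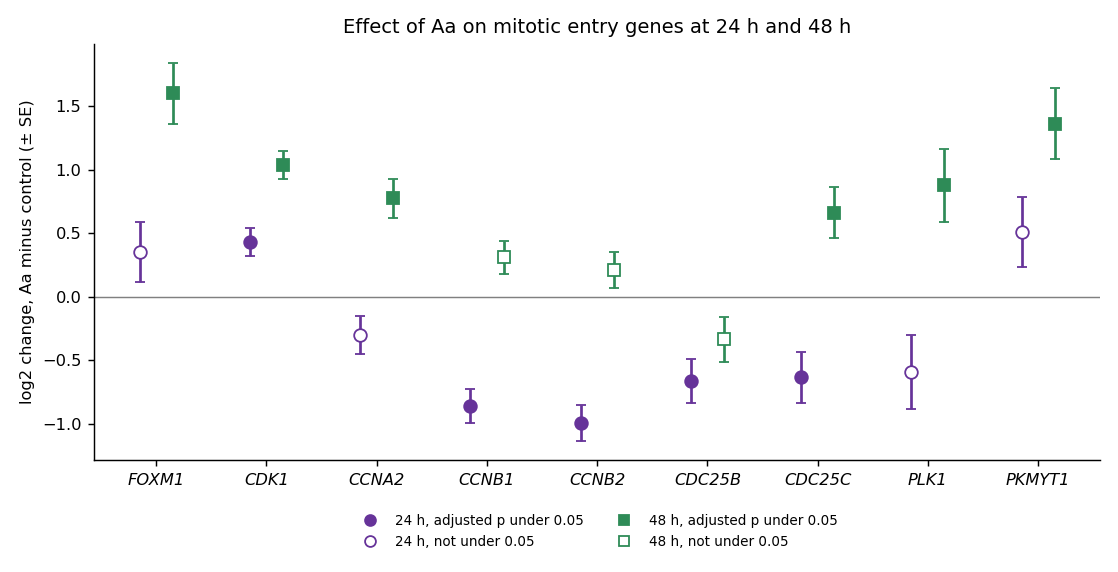
Log2 change, Aa minus control, of each mitotic entry gene (x axis) at 24 h (circles) and 48 h (squares), with the SE of the limma model as bars; filled symbols have an adjusted p under 0.05. At 24 h only CDK1 is filled above 0, and at 48 h 6 genes are, FOXM1 at 1.60 being the highest.

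Most of these genes had lower values in control cells at 48 h than at 24 h, and the comparisons over time share their arrays with those above. For controls at 48 h against 24 h, 8 of 9 members had negative log2 changes, with a median of -0.68 against -0.01 for all genes. CCNA2 fell by 0.85 (SE 0.15, adjusted p = 0.0465), the 1 of 9 members that passed where 0.5% of all genes did (0.269% lowered). The log2 change was -0.82 for PKMYT1, -0.77 for FOXM1, -0.71 for PLK1, -0.68 for CCNB1, -0.41 for CCNB2, -0.40 for CDC25C, -0.22 for CDK1 and 0.24 for CDC25B. A replicate block made the fall significant for 6 of 9, namely CCNA2, PKMYT1, FOXM1, PLK1, CCNB1 and CCNB2, where 17.8% of all genes passed. The arrays of both times did not overlap for 7 of 9 members, against 23.1% of all genes. The call of CCNA2 held in 9 of 22 alternatives (adjusted p 0.00298 to 0.205). Of the 12 arrays, it passed only without control replicate 3 of 48 h. Without Aa arrays its adjusted p was 0.0664 to 0.0753, without a control array of 24 h it was 0.112 to 0.205, and without control replicate 1 or 2 of 48 h it was 0.179 or 0.185.

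In Aa cells the changes over time had the other sign. All 9 had positive log2 changes at 48 h against 24 h, from 0.03 for PKMYT1 to 0.89 for CDC25C, with a median of 0.50 against 0.01 for all genes. CCNB2 rose by 0.80 (SE 0.14, adjusted p = 0.0133) and CDC25C by 0.89 (SE 0.20, adjusted p = 0.0301), which makes 2 of 9 members where 5.5% of all genes passed (3.07% raised and 2.44% lowered). With the replicate block 7 of 9 rose, CCNB1, CDK1, CDC25B, PLK1 and FOXM1 in addition, where 21.3% of all genes passed. The arrays of the times did not overlap for 7 of 9 members, against 24.2% of all genes. CCNB2 did not pass without Aa replicate 1 of 48 h (adjusted p = 0.0575, range over 22 alternatives 0.0037 to 0.0974). CDC25C did not pass without Aa replicate 1 (0.0638) or 3 (0.103) of 24 h, or without Aa replicate 1 (0.112) or 2 (0.0623) of 48 h (range over 21 alternatives 0.0052 to 0.112).

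Ordered by mean level over the 4 groups, the members fell into a few patterns. FOXM1, CDK1 and PKMYT1 ran, high to low, through Aa at 48 h, Aa at 24 h, controls at 24 h and controls at 48 h. All neighbours in this order were apart for CDK1, whereas for FOXM1 and PKMYT1 only the last step was free of overlap. CCNB1 and CCNB2 ran through controls at 24 h, Aa at 48 h, controls at 48 h and Aa at 24 h, with all neighbours apart for CCNB2 and the last step overlapping for CCNB1. CCNA2 was highest in controls at 24 h, level with Aa at 48 h within the spread, and lowest in controls at 48 h. PLK1 was highest in Aa cells at 48 h, which overlapped with controls at 24 h, and lowest in controls at 48 h, which overlapped with Aa at 24 h. CDC25C ran from Aa at 48 h down to Aa at 24 h with every pair of neighbours overlapping. CDC25B alone was highest in controls at 48 h, and only its Aa cells at 24 h stood apart below the others. Levels were compared within a gene only, since the height of an array signal is not comparable between probe sets.

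The values of the kinase and its cyclins can also be set against each other on the same array, which shows unequal change only. The log2 difference CDK1 minus CCNB1 was 1.30, 0.87 and 1.41 in Aa cells at 24 h and -0.07, -0.12 and -0.10 in controls. The groups were far apart, and their means differed by 1.29. For CDK1 minus CCNB2 the difference between the means was 1.43 at 24 h and 0.83 at 48 h, and for CDK1 minus CCNB1 it was 0.73 at 48 h. The gap was smaller for CDK1 minus CCNA2, at 0.73 at 24 h and 0.26 at 48 h. With the other CCNB1 probe set, 228729_at, it was 0.76 at 24 h and 0.30 at 48 h, the last with a two-sided exact permutation p of 0.2 and overlapping groups. In each of the others the exact permutation test gave a two-sided p of 0.1, the smallest that 3 arrays against 3 allow. These pairs of genes were chosen after their values were seen.

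Several members were measured by more than 1 probe set, and these did not all give the same picture. Of the 15 member probe sets past the filter, 1 rose and 4 fell with Aa at 24 h, where 22.3% of 19623 probe sets changed. At 48 h 10 of 15 rose and none fell, where 33.9% changed. The test of the difference between the times passed for 2 of 15 (0.392% of all probe sets), and 3 of 15 rose over time in Aa cells (3.89%). In control cells over time 0 of 15 passed in limma (0.117% of all probe sets), and CCNA2, called among genes, had an adjusted p of 0.0654 in 203418_at and 0.139 in 213226_at. For CDK1, the probe sets 203213_at, 210559_s_at and 203214_x_at had log2 changes of 0.43, 0.34 and 0.33 at 24 h and of 1.04, 1.26 and 1.20 at 48 h. All 3 passed at 48 h and only the first at 24 h. The dimmest CDK1 probe set, 231534_at, with a mean log2 value of 5.88 against 12.86 for 203213_at, had a change of the other sign at 24 h (-0.39, SE 0.32, adjusted p = 0.432) and of 0.74 at 48 h (SE 0.32, adjusted p = 0.0994).

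CCNB1 was read by 214710_s_at, used above, and by 228729_at. That probe set had a log2 change of -0.33 at 24 h (SE 0.15, adjusted p = 0.134) and rose by 0.74 at 48 h (SE 0.15, adjusted p = 0.00354). Its signs at both times were those of 214710_s_at, but the calls were exchanged, 24 h passing in 1 and 48 h in the other. The difference between the times was close in size, 1.17 and 1.07. In limma over all probe sets it passed in 214710_s_at (adjusted p = 0.0357) but not in 228729_at (0.0676). For CCNA2, 213226_at gave 0.06 at 24 h (SE 0.11, adjusted p = 0.760) and 0.76 at 48 h (SE 0.11, adjusted p = 0.000613), beside -0.30 and 0.77 in 203418_at. For CDC25C, 217010_s_at gave -0.92 at 24 h (SE 0.32, adjusted p = 0.0626) and 0.23 at 48 h (SE 0.32, adjusted p = 0.624). Below the filter lay 2 probe sets of CCNB2 and 1 of CDC25C, with mean log2 values of 1.95, 2.75 and 2.17. Which transcripts or exons the probe sets match was not examined here.

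**Figure D3:**
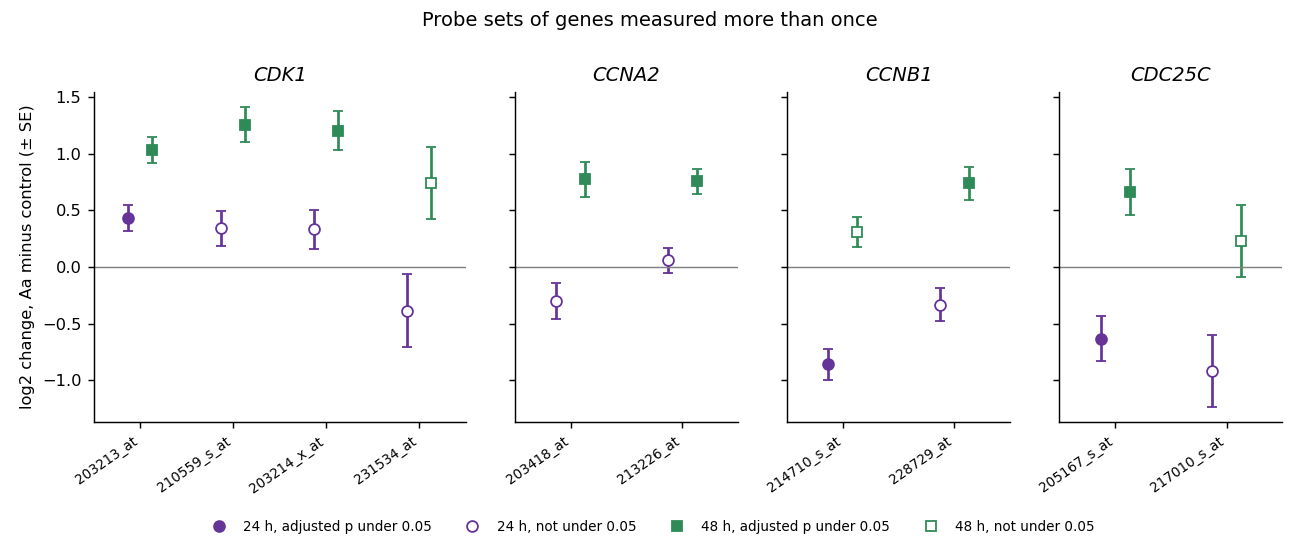
Log2 change, Aa minus control, with SE, for each probe set (x axis) of CDK1, CCNA2, CCNB1 and CDC25C, at 24 h (circles) and 48 h (squares); filled symbols have an adjusted p under 0.05 over 19623 probe sets. Every symbol at 48 h lies above 0, and the CDK1 probe set 231534_at lies at -0.39 at 24 h, below the other 3 of its gene.

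Genes listed as partners of mitotic entry, not all of which act on CDK1 directly, were divided at 24 h and mostly raised at 48 h. Of 12 tested, 2 rose and 4 fell at 24 h (4 and 5 with the replicate block), and 7 rose and 1 fell at 48 h (8 and 1 with the block), with median log2 changes of -0.24 and 0.55. The counts of this and the lists below stand beside 10.3% of all genes raised and 12.8% lowered at 24 h, and 17.8% raised and 20.1% lowered at 48 h. Those with the block stand beside 41.3% of all genes at 24 h and 54.8% at 48 h, both directions together. For counts by an unadjusted p no share of all genes is given. CDC25A, the phosphatase that also acts at the start of S phase, rose by 1.41 on the log2 scale at 24 h (SE 0.17, adjusted p = 0.000375) and by 1.67 at 48 h (SE 0.17, adjusted p = 8.74e-05), in contrast to its relative CDC25B. MASTL, the Greatwall kinase, rose by 1.30 at 48 h (SE 0.21, adjusted p = 0.00103), and CKS1B, a small subunit of CDK complexes, by 1.07 (SE 0.13, adjusted p = 0.000178). ENSA, through which MASTL blocks the phosphatase that opposes CDK1, fell by 0.81 at 48 h (SE 0.12, adjusted p = 0.000722). These calls held in all alternatives run on each gene. ARPP19, of the same list, moved the other way from ENSA. It rose by 0.35 at 24 h (SE 0.11, adjusted p = 0.0409, passing in 14 of 21 alternatives). At 48 h ARPP19 rose by 0.36 (SE 0.11, adjusted p = 0.0251, passing in 16 of 21).

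AURKA, the kinase that activates PLK1, and BORA, its cofactor in this step, fell at 24 h and rose at 48 h. On the log2 scale AURKA fell by 0.58 at 24 h (SE 0.15, adjusted p = 0.0160, range over 22 alternatives 0.00894 to 0.198) and rose by 0.49 at 48 h (SE 0.15, adjusted p = 0.0243, range 0.0111 to 0.967, the highest without the probe sets marked as shared). BORA fell by 0.76 (SE 0.22, adjusted p = 0.0282, range 0.00745 to 0.0985) and rose by 0.64 (SE 0.22, adjusted p = 0.0376, range 0.0142 to 0.122). Without the probe sets marked as shared, AURKA passed at neither time. It also did not pass at 24 h without Aa replicate 1 or 3 or control replicate 3. At 48 h it did not pass without any of the 3 Aa replicates or control replicate 1 or 2. BORA at 24 h did not pass without Aa replicate 1 or 3 or control replicate 2 or 3, without a filter, or with only the arrays compared. At 48 h BORA did not pass without a filter, any Aa replicate, control replicate 1 or 2, or Aa replicate 1 or control replicate 2 of 24 h. TPX2, which localises AURKA to the spindle, fell by 0.42 at 24 h (SE 0.13, adjusted p = 0.0451, passing in 8 of 21 alternatives) and rose by 0.61 at 48 h (SE 0.13, adjusted p = 0.00538, passing in 21 of 21).

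Other genes that the same factors switch on in G2 and mitosis in part fell at 24 h and mostly rose at 48 h. Of 22 tested, 6 fell and none rose at 24 h (12 fell with the replicate block), and 16 rose and none fell at 48 h (17 rose with the block), with median log2 changes of -0.29 and 0.72. By an unadjusted p under 0.05, 10 fell and 0 rose at 24 h and 18 rose and 0 fell at 48 h. The test of the difference between the times passed for 14 of 22, where 0.825% of all genes passed, 0.741% in this direction. With the block it passed for 22, where 11% of all genes did. No gene was among both the 6 and the 16, but 7 both fell at 24 h and rose at 48 h with the block, and 6 by the unadjusted p. The share of all genes that did both was not taken, so whether these counts are unusual cannot be told. CDCA3 fell by 1.36 on the log2 scale at 24 h (SE 0.16, adjusted p = 0.000348), KIF20A, a kinesin of late mitosis, by 1.26 (SE 0.13, adjusted p = 0.000152), DLGAP5 by 1.09 and the kinetochore motor CENPE by 0.96. NEK2, a centrosome kinase, rose by 1.43 at 48 h (SE 0.17, adjusted p = 0.000202), TOP2A, the topoisomerase of chromosome separation, by 1.09, KIF2C by 1.08 and the proliferation marker MKI67 by 1.07.

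Of 10 genes listed as brakes of the G2/M transition, 3 rose and none fell at 24 h (4 and 0 with the replicate block, and by an unadjusted p under 0.05), and 5 rose and 2 fell at 48 h (6 and 2 with the block), with median log2 changes of 0.17 and 0.57. CDKN1A, which encodes the CDK inhibitor p21, rose by 1.03 on the log2 scale at 24 h (SE 0.22, adjusted p = 0.00716) and by 1.66 at 48 h (SE 0.22, adjusted p = 0.000358). GADD45A rose by 1.03 at 48 h (SE 0.15, adjusted p = 0.000644), GADD45B by 2.00 (SE 0.34, adjusted p = 0.0013) and FBXO5 by 0.73 (SE 0.13, adjusted p = 0.00177). FBXO5 encodes EMI1, an inhibitor of the anaphase-promoting complex that lets cyclins A and B accumulate, and so is not a brake on entry. It is still part of the counts and medians of this list. The calls given for CDKN1A, GADD45A, GADD45B and FBXO5 held in all alternatives. SFN rose by 0.54 at 24 h (adjusted p = 0.0246, passing in 17 of 22) and 0.42 at 48 h (0.0472, 10 of 22). WEE1 passed at neither time (-0.30, adjusted p = 0.164, and -0.04, 0.849). The 2 that fell at 48 h, named after their values were seen, were CDKN1B (-0.49, SE 0.17, adjusted p = 0.0449, passing in 10 of 22 alternatives) and the checkpoint kinase gene CHEK1 (-0.46, SE 0.15, adjusted p = 0.0322, passing in 16 of 22).

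Few of the factors that act on these promoters passed the test. Of 12 genes of the B-MYB-MuvB, DREAM and NF-Y complexes, none rose and 1 fell at 24 h (3 and 2 with the replicate block), and 1 rose and 1 fell at 48 h (3 and 1 with the block), with median log2 changes of 0.11 and 0.14. By an unadjusted p under 0.05, 2 rose and 1 fell at 24 h in the same limma fit. MYBL2, which encodes B-MYB, rose by 1.28 on the log2 scale at 48 h (SE 0.27, adjusted p = 0.0041) and RBBP4, a histone-binding subunit of MuvB, fell by 0.46 at 24 h (SE 0.10, adjusted p = 0.0098). RBBP4 fell at 48 h too, by 0.33 (SE 0.10, adjusted p = 0.0289, range over 22 alternatives 4.71e-06 to 0.0963), but not without Aa replicate 1 or 3 or control replicate 1 or 2.

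Of 13 genes of the anaphase-promoting complex and its ubiquitin enzymes, which destroy the cyclins, 1 rose and 1 fell at 24 h (1 and 3 with the replicate block) and 3 rose at 48 h (7 rose and 1 fell with the block). CDC20, its mitotic activator, fell by 0.82 on the log2 scale at 24 h (SE 0.19, adjusted p = 0.0118, range over 21 alternatives 0.00232 to 0.0502), not passing without control replicate 3 (adjusted p = 0.0502). UBE2C, its ubiquitin-conjugating enzyme, rose by 0.96 at 48 h (SE 0.18, adjusted p = 0.0021). The CDK-activating kinase has 3 subunits. Of these CCNH fell by 0.36 at 24 h (SE 0.09, adjusted p = 0.0166, not passing without Aa replicate 1 or control replicate 2) and by 0.40 at 48 h (SE 0.09, adjusted p = 0.00708). MNAT1 fell by 0.55 at 48 h (SE 0.16, adjusted p = 0.0203), but not without Aa replicate 1 or 3 or control replicate 3, and the kinase CDK7 did not pass at 24 h (0.24, adjusted p = 0.341, or 0.0220 with the replicate block) or at 48 h (-0.10, adjusted p = 0.689). Of 8 cyclins and kinases of G1/S, 2 rose and none fell at 24 h (3 and 1 with the replicate block, 3 and 0 by an unadjusted p under 0.05) and 4 rose and none fell at 48 h (5 and 1 with the block, 5 and 0 unadjusted). CCNE1 rose by 0.67 at 24 h and 0.65 at 48 h, and CCNE2 by 0.80 at 24 h, in all alternatives.

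**Figure D4:**
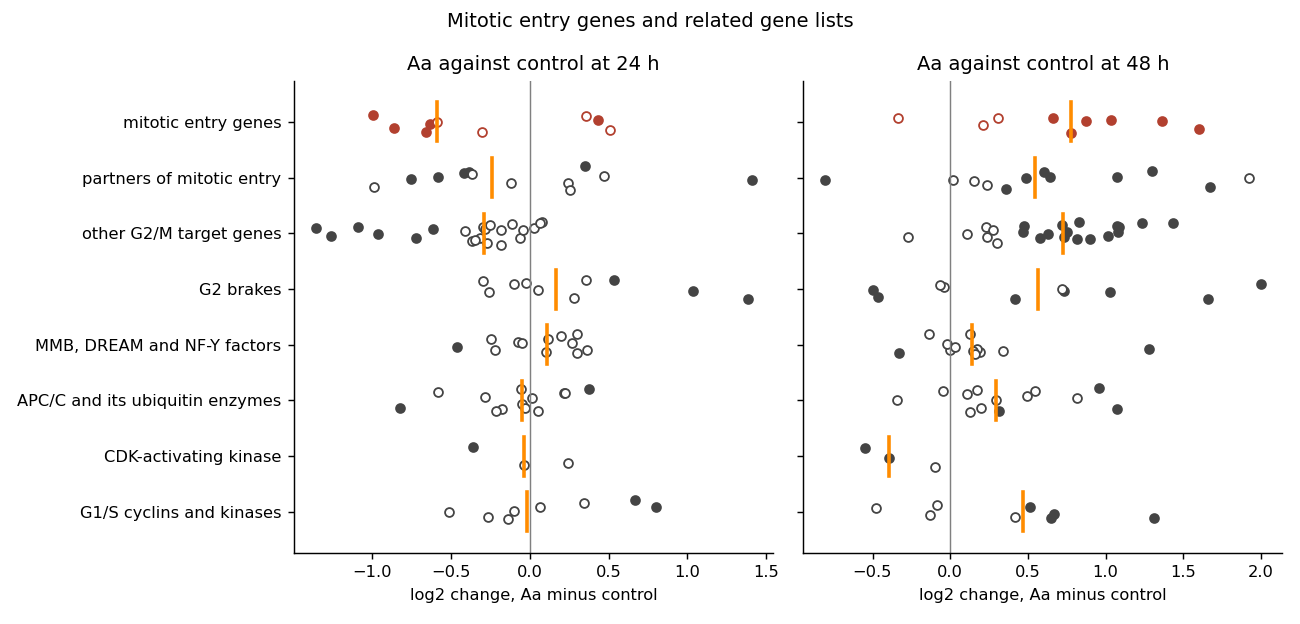
Log2 change, Aa minus control, of single genes (points) in the mitotic entry genes (top row) and 7 related lists, at 24 h (left) and 48 h (right); filled points have an adjusted p under 0.05 and orange bars mark the median of a list. The medians of the first 3 lists lie below 0 at 24 h (-0.59, -0.24 and -0.29) and above 0 at 48 h (0.77, 0.55 and 0.72).

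The genes whose pattern over the 12 arrays was most like the members' mean profile were NUF2 (Pearson's r = 0.968), TPX2 (0.963), PIMREG (0.960), KPNA2 (0.957) and NCAPD2 (0.946). The profile was the mean of the 9 members after each was centred and scaled over the arrays. The value of r is given as a description, over arrays that fall into 4 groups. The members themselves had lower r to this profile, from 0.09 for CDC25B to 0.88 for PLK1. The profile is thus not the pattern of every member. NUF2, a kinetochore protein, averaged 9.74 in Aa cells and 10.16 in controls at 24 h, and 10.24 in Aa cells and 9.62 in controls at 48 h. NCAPD2, a condensin subunit, averaged 9.96 with Aa and 10.23 in controls at 24 h, and 10.54 with Aa and 9.72 in controls at 48 h. In each of the 5 the mean was lower with Aa at 24 h and higher with Aa at 48 h. This direction follows from their choice by the profile and is no separate result.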

How the data were processed

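RNA was labelled with biotin and hybridised to 12 Affymetrix arrays. The authors deposited log2 values, which run from 0.82 to 16.25, and per the submitters' processing notes these were made with GCRMA, version not stated. Of 54675 probe sets, 41091 had 1 symbol and 1801 had several. Genes were read by the probe set with the highest mean, if that reached 4 on the log2 scale (10791 genes), and 19623 probe sets reached that level. limma 3.58.1 (R 4.3.3) fitted the means of the 4 groups over the 12 arrays in 1 model, with 8 residual and 2.76 prior degrees of freedom. Tests were two-sided, with Benjamini-Hochberg adjustment over all genes, and rose or fell means an adjusted p under 0.05. The code was tested on simulated data. Members and lists were chosen with earlier results of these data known, and a list is given by counts, its median and up to 4 genes with the smallest p at each time. Alternatives were other filters, probe set choices, scalings, a replicate block, an intensity trend, fewer arrays in the fit and leaving out each array.

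The labels do not say whether equal replicate numbers belong together. After group means were removed, arrays of different groups that carry 1 number correlated with r from 0.349 to 0.619 (18 pairs), and those with unlike numbers from -0.49 to -0.011 (36 pairs), and each array's nearest neighbour, for 12 of 12, carried its own number. Deviations from a group mean cancel out within the group, so the negative values partly follow from the positive ones and are no separate support. The pairing thus comes from the data, and a fit with the number as a block is quoted where it changes a member's call or a list's counts. Replicates are biological per the labels, which do not describe separate cultures. The p-values therefore reflect variation among these 12 samples, which may be technical, and the number of arrays limits the precision. Promoter sequences came from RefSeq's table for GRCh38.p14.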

Additional observations from a re-analysis of the deposited data

Results flagged for a closer look

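For 15 of the genes named in the report the effect of Aa at 48 h differed from that at 24 h in limma's test of the difference itself. The adjusted p was under 0.05, which 89 of 10791 genes (0.825%) reached. Genes of the lists were named for a small p at 24 h or 48 h, and the similar genes for their pattern, on these same arrays. Their passing is thus partly given by that choice and is no separate support. Among the mitotic entry genes these were CCNB1, with a difference of 1.17 on the log2 scale, and CCNB2, with 1.21. Among the named genes of the related lists they were NEK2 (1.61), KIF20A (1.49), CENPE (1.27), MKI67 (1.25), DLGAP5 (1.20), AURKA (1.07), KIF2C (1.05) and TOP2A (1.02). The genes most like the members' profile, chosen by their pattern on these arrays, had PIMREG at 1.42, NCAPD2 at 1.08, NUF2 at 1.05, TPX2 at 1.02 and KPNA2 at 0.91. In each case the effect was the more positive at 48 h. KIF20A passed in 16 of 21 alternatives (adjusted p 0.00549 to 0.0675), the most of these, and NCAPD2 in 6 of 20 (0.00704 to 0.150), the fewest. AURKA passed in 9 of 21 (0.0159 to 0.554).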

How the results depend on the processing

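Over all members, comparisons and alternatives, 852 values kept direction and side of the threshold, 69 lost the call, 37 gained it (21 of these with the replicate block, which ended no call) and 3 changed sign. The sign changes were those of PKMYT1 in Aa cells over time, a change that never passed: -0.14 without Aa replicate 2 of 24 h, -0.02 and -0.15 without Aa replicate 1 or 3 of 48 h, within a range over left-out arrays of -0.15 to 0.27.

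With the replicate block the counts of genes changed were 4457 at 24 h (2494 without it), 1183 for the difference between the times (89), 1919 for controls over time (54) and 2303 for Aa cells over time (594), and those of members 9 (5), 8 (2), 6 (1) and 7 (2). At 48 h the block moved no count by over 1.5 times, and beyond the calls given in the report it changed no call of a member. Without probe sets marked as shared, which leaves 5 members, 2 members passed at 24 h and 1 member and 48 genes for the difference between the times. Centring the arrays left 57 genes for that difference. Fitting only the arrays compared left 0 genes and 0 members for controls over time (1828 and 5 by an unadjusted p under 0.05 in limma) and 11 genes and 0 members for Aa cells over time (6 members unadjusted). This fit cannot be had for the difference between the times. Without a filter 0 members passed for controls and 1 for Aa cells over time, with quantile normalization 2 for controls, and with an intensity trend 2 for controls and 4 for Aa cells. The causes were not tested.

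Leaving out 1 array gave 1672 to 2628 genes and 2 to 5 members at 24 h, 2971 to 4146 genes and 4 to 6 members at 48 h, 0 to 255 genes and 0 to 4 members for the difference between the times (1148 to 2020 and 7 to 8 unadjusted), 1 to 361 genes and 0 to 2 members for controls over time, and 124 to 716 genes and 0 to 3 members for Aa cells over time. The fewest genes were found without Aa replicate 1 of the time compared (24 h and 48 h), without control replicate 2 of 24 h or replicate 1 or 2 of 48 h (difference between the times), without control replicate 1 of 48 h (controls over time) and without Aa replicate 1 of 48 h (Aa cells over time). The most were found without Aa replicate 2 of 48 h, except for 48 h (Aa replicate 2 of 24 h) and controls over time (control replicate 3 of 48 h). Members numbered 2 at 24 h without control replicate 1 or 2, and 4 at 48 h without Aa replicate 1. A group left with 2 arrays was assumed to vary like the others.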
